A study of Bos taurus with 9 samples.

Results

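The miRNAs bta-miR-221 and bta-miR-222 are the 2 members described here, out of 515 mature miRNAs measured in bovine rectal tissue. They were taken by name from the table of miRNA abundance, over all 9 libraries. The pair was selected on the difference between super-shedders and non-shedders, bta-miR-222 being among the miRNAs lowest in super-shedders, so that contrast is described here without a test. Each library came from 1 steer. The super-shedders (SS, n = 5) were labelled as passing E. coli O157 at more than 10000 CFU in each g of feces. The non-shedders (NS, n = 4) were labelled as negative. All were feedlot steers fed one barley-grain diet, and the controls were pen-mates of the shedders. The shedding level was measured days before slaughter. The paper states that it had decreased in the SS by then and that not all were still above the threshold. The tissue was 2 biopsies per animal, taken 3 to 5 cm proximal to the recto-anal junction and containing mucosa, muscle, vessels and lymphoid tissue together, so fewer cells of a type and less of a miRNA per cell cannot be told apart.

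A miRNA lowers the output of mRNAs that its seed, a short run of bases near its 5′ end, can pair with. In mammals miR-221 and miR-222 are encoded side by side on the X chromosome, are cut from a common primary transcript and share their seed, so that they can act on the same mRNAs. Known targets in human and mouse cells include the mRNA of the cell cycle inhibitor p27 (CDKN1B) and that of the receptor KIT. In vessel walls the pair is known for promoting growth of smooth muscle cells and restraining that of endothelial cells, and KIT marks mast cells and the pacemaker cells of the gut wall. In the RefSeq gene table of the cow assembly ARS-UCD2.0, MIR221 and MIR222 stood next to each other on the X chromosome with 0 genes between them, and both lay within 1 long non-coding RNA gene, LOC132344329. No other miRNA gene of that table lay within 50 kb. The abundance table held 1 row for each hairpin, without an arm in its name, and 0 other rows within 15% of either member in every library.

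Library totals ranged from 650726 to 6314556 reads, with the largest in SS steers 310 and 274. The smooth muscle miRNA bta-miR-143 took 22.1% to 73.1% of a library. All 6 smooth muscle and all 9 intestinal epithelial miRNAs of the lists used here were detected in every library. So were all members of the other lists, so detection alone does not tell tissues apart. Between SS and NS, limma called 0 of 245 tested miRNAs, which is 0% (40 at an unadjusted p under 0.05), a call being an adjusted p under 0.1 with a log2 difference larger than 1 either way. Without the filter on low miRNAs it called 0.194% of the 515. On the reads recovered from the table, edgeR's quasi-likelihood test called 0 of 245 (26 at an unadjusted p under 0.05), edgeR's exact test 0.408% and DESeq2 3.67%. These calls held 0 of the 2 members, from which nothing is read, since the pair was selected on this contrast.

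By mean level bta-miR-221 ranked 86 and bta-miR-222 ranked 94 of the 515 miRNAs, and within single libraries the ranks ran from 69 to 100 and from 72 to 121. The members rested on 252 to 1707 reads per library, so that counting error was small beside the differences between animals.

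In the NS libraries, bta-miR-221 was at 486 CPM in steer 108, 544 CPM in steer 152, 347 CPM in steer 165 and 938 CPM in steer 242, where CPM is the deposited unit of reads scaled to the library total. The SS libraries held 114 CPM in steer 274, 630 CPM in steer 287, 424 CPM in steer 294, 211 CPM in steer 299 and 69.7 CPM in steer 310. SS steers 274, 299 and 310 therefore lay below every NS library, while steers 287 and 294 lay inside the NS range, so the groups overlapped. The SS mean was 290.0 ± 234 CPM (SD, n = 5) against an NS mean of 579 ± 253 CPM (SD, n = 4), 2.00-fold higher in NS. The 95% Clopper-Pearson interval of the lowest library, SS steer 310, was 63.3 to 76.5 CPM, and that of the highest, NS steer 242, was 876 to 1003 CPM.

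The abundance of bta-miR-222 in the NS libraries was 670.0 CPM in steer 108, 399 CPM in steer 152, 313 CPM in steer 165 and 481 CPM in steer 242. In SS it was 72.6 CPM in steer 274, 277 CPM in steer 287, 305 CPM in steer 294, 143.2 CPM in steer 299 and 39.9 CPM in steer 310. All 5 SS libraries lay below all 4 NS libraries, which 6.53% of the tested miRNAs also did. The gap between the groups was narrow, since the interval of SS steer 294 (277 to 334 CPM) overlapped that of NS steer 165 (291 to 337 CPM). The SS mean was 168 ± 119 CPM (SD, n = 5) against an NS mean of 466 ± 152 CPM (SD, n = 4), 2.78-fold higher in NS.

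**Figure D1:**
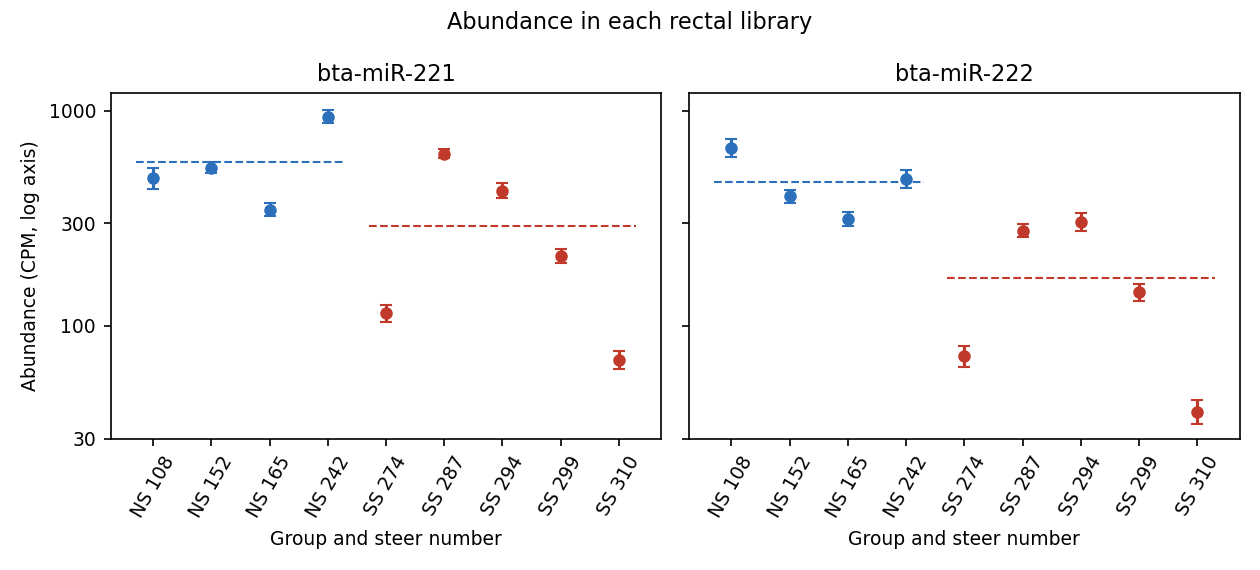
Abundance of bta-miR-221 (left) and bta-miR-222 (right) in each library, in CPM on a log axis, with NS in blue and SS in red. Bars are 95% Clopper-Pearson intervals of the read count and dashed lines are group means. SS steers 310 and 274 are lowest for both members, at 69.7 and 114 CPM for bta-miR-221 and 39.9 and 72.6 CPM for bta-miR-222.

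Because the members share their seed, their sum gives the abundance of that seed from this locus. The sum was 187 CPM in SS steer 274, 907 CPM in SS steer 287, 729 CPM in SS steer 294, 355 CPM in SS steer 299 and 110 CPM in SS steer 310. In NS it was 1156 CPM in steer 108, 943 CPM in steer 152, 661 CPM in steer 165 and 1419 CPM in steer 242. The sum in SS spanned 8.28-fold between animals and overlapped NS in steers 287 and 294, whereas NS spanned 2.15-fold. On the log2(CPM + 1) scale the SD over all 9 libraries was 1.21 for bta-miR-221 and 1.32 for bta-miR-222, against a median of 0.91 over the tested miRNAs.

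The size of the group difference depended on how the libraries were scaled. As deposited, the log2 difference of SS minus NS was -1.33 (SE 0.65) for bta-miR-221 and -1.79 (SE 0.62) for bta-miR-222. However, the median of all 245 tested miRNAs was itself at -0.70, and relative to that median the members were at -0.64 and -1.09. With TMM factors, which set the bulk of miRNAs equal between libraries, the differences were -0.55 (SE 0.36) for bta-miR-221 and -1.01 (SE 0.36) for bta-miR-222. Both members stayed below 0 as deposited and with TMM, median-of-ratios and bta-miR-143-free scaling, and relative to the median they were at -0.64 to -0.60 and -1.09 to -1.06 under these. Scaling multiplies all miRNAs of a library alike, so this distance to the median is nearly fixed in advance. Its constancy is therefore not a separate result. The separation of the groups for bta-miR-222 was not kept under every scaling. With TMM factors NS steer 242 was at 204 CPM, 3 of 5 SS libraries lay below every NS library, and complete separation was found for 2.04% of the tested miRNAs. With median-of-ratios factors 3 of 5 SS libraries likewise lay below every NS library. Complete separation was found there for 3.67% of the tested miRNAs.

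**Figure D2:**
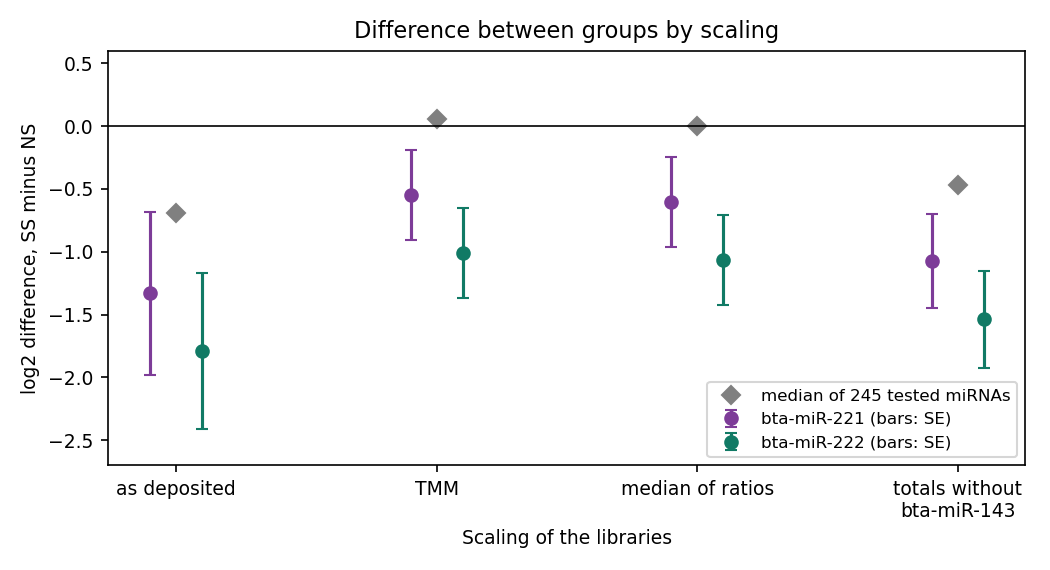
Log2 difference of SS minus NS for bta-miR-221 (purple) and bta-miR-222 (green) under 4 scalings, with bars of 1 SE from limma, beside the median of the 245 tested miRNAs (grey diamonds). Both members lie below 0 at each scaling, from -1.33 to -0.55 and from -1.79 to -1.01. They also lie below the median, at a distance that scaling can hardly change.

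The libraries with the lowest members were also those richest in bta-miR-143. SS steers 274 and 310 held 73.1% and 73.0% of bta-miR-143 and SS steer 299 held 65.3%, and these were the 3 deepest libraries. With bta-miR-143 left out of the library totals, bta-miR-222 was at 242, 389, 376, 383 and 135 CPM in SS steers 274, 287, 294, 299 and 310, and at 612 to 1245 CPM in NS, still without overlap between the groups (7.76% of the tested miRNAs). The same scaling put bta-miR-221 at 236 to 883 CPM in SS and 864 to 1195 CPM in NS, with SS steer 287 alone inside the NS range. The part of sequencing depth in the group difference was not tested.

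The balance between the members also differed between animals. The ratio within a library is not altered by scaling, but adapter ligation can favour one sequence over another, so the ratio was compared between libraries only. Reads of bta-miR-222 made up 58.0% of the reads of both members in NS steer 108, 42.3% in NS steer 152, 47.5% in NS steer 165 and 33.9% in NS steer 242. In SS they made up 38.8% in steer 274, 30.6% in steer 287, 41.8% in steer 294, 40.4% in steer 299 and 36.4% in steer 310. NS steer 108 was the 1 library in which bta-miR-222 exceeded bta-miR-221, with a 95% Clopper-Pearson interval of 54.4% to 61.5% that overlapped none of the others. The lowest share, in SS steer 287, had an interval of 28.8% to 32.45%. The SS share averaged 37.6% ± 4.40 (SD, n = 5) against an NS share of 45.4% ± 10.1 (SD, n = 4), and the groups overlapped. The log2 ratio of bta-miR-222 to bta-miR-221 differed by -0.46 (SE 0.30) for SS minus NS, and by -0.21 without NS steer 108.

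**Figure D3:**
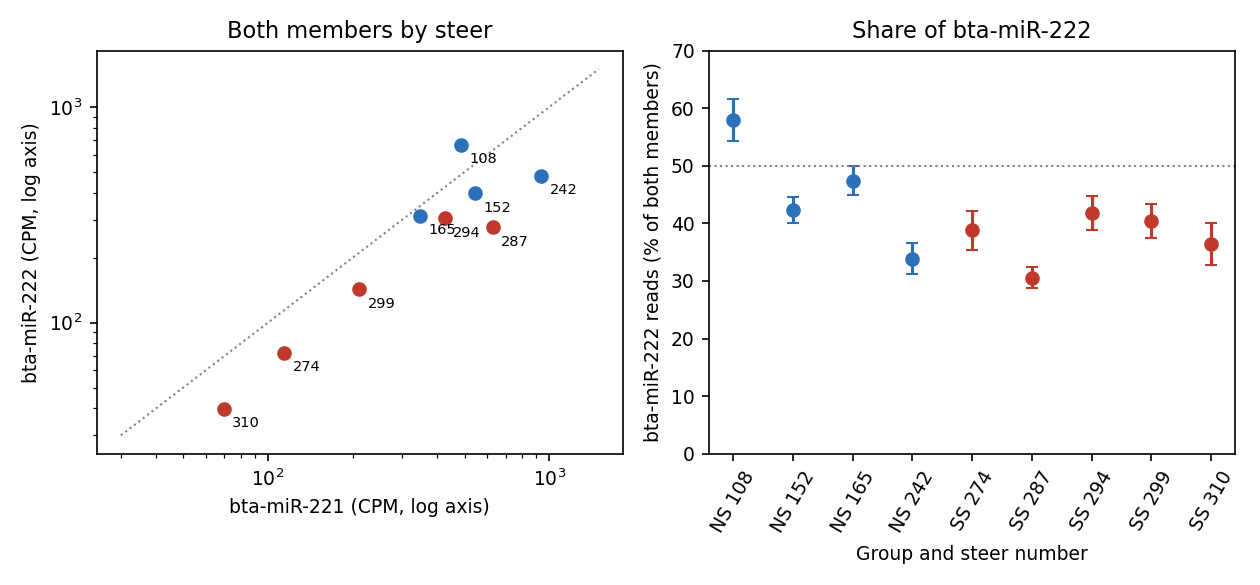
Left, bta-miR-222 against bta-miR-221 in CPM on log axes, with steer numbers, NS in blue, SS in red and a dotted line of equality. Right, reads of bta-miR-222 as a percentage of the reads of both members, with 95% Clopper-Pearson intervals and a dotted line at 50%. Only NS steer 108 lies above equality, at 58.0%.

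Across the 9 animals the members varied together. Pearson's r of log2(CPM + 1) was 0.932 (two-sided exact permutation p = 0.000692) and Spearman's rho was 0.750 (exact permutation p = 0.0255), computed as 1 relation. These p-values include the contrast of SS and NS, on which the pair was selected and in which both members were lower in SS. With the group means subtracted, r was 0.909 (exact permutation p = 0.0118 within groups). A high r was also common at the deposited scaling, where the median of the other tested miRNAs had 0.725 with the mean of both members. The relation rested in part on SS steers 274 and 310, which lay farthest from the median, since r without them was 0.695 (exact permutation p = 0.0825). Both members share the library total, and with TMM factors r was 0.759 (exact permutation p = 0.0181) and 0.174 without these steers. The rank correlation was also lost by leaving out 1 animal, with rho at 0.714 without NS steer 242 and at 0.643 without SS steer 274, 299 or 310 (exact permutation p = 0.0576 and 0.0962).

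Of the 5 cell type lists examined, the leukocyte miRNAs gave the largest correlations with the members as deposited. The list held bta-miR-142-5p and bta-miR-142-3p of blood cells in general, the lymphocyte miRNA bta-miR-150, bta-miR-155, induced in activated lymphocytes, bta-miR-342 and the myeloid bta-miR-223. In all, 10 relations were computed, of the 2 members with 5 lists, and p-values were adjusted over them. The correlation of bta-miR-221 with the mean of the leukocyte list was r = 0.929 (exact permutation p = 0.000317, adjusted p = 0.00317) and rho = 0.883 (adjusted exact permutation p = 0.0308). For bta-miR-222 it was r = 0.853 (exact permutation p = 0.00377, adjusted p = 0.0188) and rho = 0.700 (adjusted exact permutation p = 0.216). Leaving out NS steer 242 and SS steer 310, the ends of the list, gave r = 0.843 and 0.768. The pair was selected on lower levels in SS, and all 6 list members also had a lower log2 mean in SS. The p-values over all 9 libraries therefore include the selected contrast, and the lists were chosen with earlier results of these data known. With the group means subtracted, which takes that contrast out, r was 0.919 and 0.854. Neither passed then (adjusted exact permutation p = 0.0625 and 0.0781). These relations shared the library total and weakened under other scalings, to 0.713 and 0.526 with TMM factors and to 0.805 and 0.669 without bta-miR-143 in the totals, with none passing when adjusted (exact permutation, 0.0817 to 0.235). For bta-miR-222 the adjusted p also rose above 0.05 without SS steer 274 (0.0726), 299 (0.0588) or 310 (0.153) in the exact permutation test. The rank correlation of bta-miR-221 with the list no longer passed without NS steer 165 (adjusted exact permutation p = 0.154), NS steer 242 (0.0769), SS steer 274 (0.0769), SS steer 299 (0.154) or SS steer 310 (0.154).

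The leukocyte miRNAs themselves took 0.0456% to 1.65% of a library in SS and 0.345% to 4.27% in NS. The highest NS share was that of steer 242, and the other NS libraries held 0.345% to 0.565%, below SS steers 287 (0.780%) and 294 (1.65%). All 6 had a lower log2 mean in SS, as had 88.2% of the tested miRNAs, and limma called 0 of them. DESeq2, which called 3.67% of the tested miRNAs, called bta-miR-155 (log2 difference -1.36, DESeq2 adjusted p = 0.0858). The median difference of the 6 was -1.53, against -0.70 for all tested miRNAs. Their part in the levels of bta-miR-221 and bta-miR-222 was not tested beyond these correlations. Among single members of the list, bta-miR-155 had r = 0.939 with bta-miR-221 and 0.924 with bta-miR-222 over the 9 libraries. Its SS mean was 168 ± 129 CPM (SD, n = 5) against an NS mean of 654 ± 492 CPM (SD, n = 4), which was 409 ± 67.6 CPM (SD, n = 3) without NS steer 242.

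The other lists gave no relation that passed over all 9 libraries. Smooth muscle miRNAs summed to 22.2% to 73.7% of a library in SS and 30.6% to 62.8% in NS, and epithelial miRNAs to 0.428% to 40.2% and 2.52% to 13.4%. Against the smooth muscle miRNAs, r was -0.622 for bta-miR-221 and -0.487 for bta-miR-222 (adjusted exact permutation p = 0.122 and 0.220). With TMM factors these values were little changed, at -0.644 and -0.462 (adjusted exact permutation p = 0.205 and 0.234). Against the intestinal epithelial miRNAs it was 0.624 and 0.662 (adjusted exact permutation p = 0.122 for both), and -0.140 and -0.00530 without SS steers 274 and 310, which were poorest in that list. Without NS steer 242 the epithelial relations passed, at r = 0.874 and 0.807 (adjusted exact permutation p = 0.0256 and 0.0448). For bta-miR-126-3p and bta-miR-126-5p of endothelium, r was 0.629 for bta-miR-221 (adjusted exact permutation p = 0.122), and the relation of bta-miR-222 did not pass either (adjusted exact permutation p = 0.220). Both turned with scaling, to r = -0.533 and -0.729 with TMM factors. For bta-miR-222 this was the list with the largest r in size at that scaling, though none passed. Next came the epithelial list (0.547, and 0.499 for bta-miR-221) and then the leukocyte list (0.526). The erythrocyte miRNAs gave 0.479 and 0.331 (adjusted exact permutation p = 0.220 and 0.378).

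**Figure D4:**
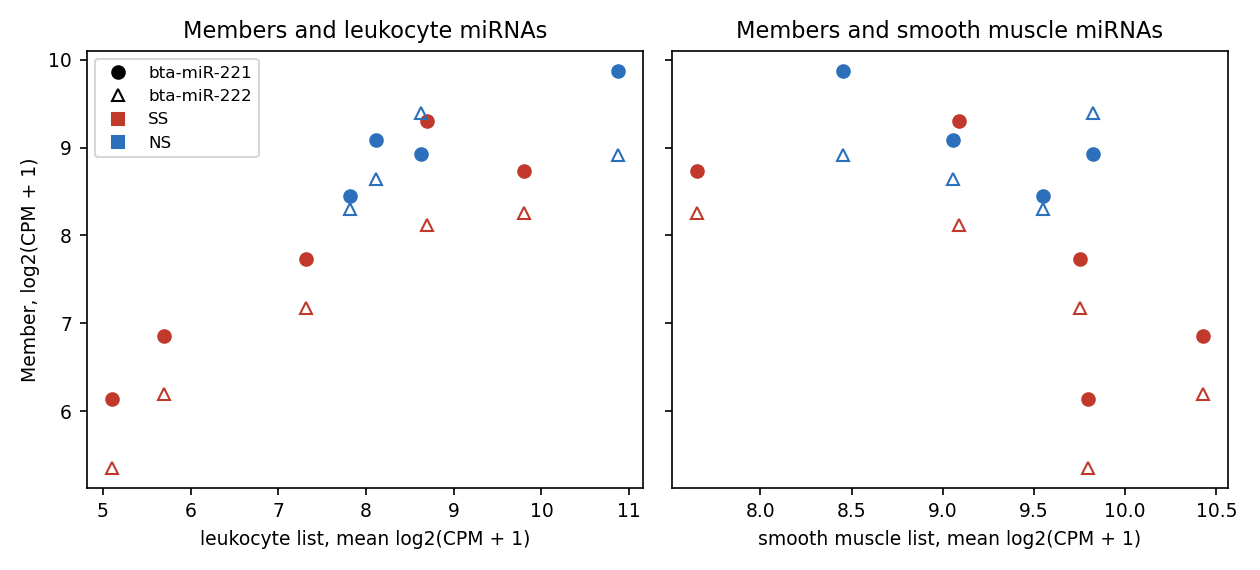
Log2(CPM + 1) of bta-miR-221 (filled circles) and bta-miR-222 (open triangles) in each library against the mean log2(CPM + 1) of the leukocyte list (left) and of the smooth muscle list (right), with NS in blue and SS in red. With the leukocyte list r is 0.929 and 0.853 as plotted, but 0.713 and 0.526 with TMM factors, which did not pass. With the smooth muscle list r is -0.622 and -0.487, which did not pass either.

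The pair has known roles in vessel walls, and 9 other miRNAs with roles there were compared, some of them also in the lists above. Of these 5 had a lower and 4 a higher log2 mean in SS, and the median difference was -0.24, against -0.70 for all tested miRNAs. In limma 0 of the 9 were called. DESeq2, which called 3.67% of the tested miRNAs, called bta-miR-155 (log2 difference -1.36) and bta-miR-24-3p (1.10). Closest to bta-miR-221 among the 9 as deposited was bta-miR-21-5p, a miRNA raised in growing and inflamed tissue, with r = 0.948. Its r with bta-miR-222 was 0.881. With the mean of both members it had r = 0.929 as deposited and 0.688 with TMM factors. For bta-miR-145, which keeps smooth muscle cells contractile, r was -0.362 with bta-miR-221 and -0.420 with bta-miR-222. The endothelial bta-miR-126-5p had a log2 difference of -0.24 (SE 0.44), with 2868 CPM in its lowest and 10516 CPM in its highest library.

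Of the other 243 tested miRNAs, the 10 most like the mean of both members over the 9 libraries were bta-miR-669, bta-miR-326, bta-miR-93, bta-miR-744, bta-miR-497, bta-miR-106b, bta-miR-155, bta-miR-92b, bta-miR-16b and bta-miR-331-3p, with r from 0.967 down to 0.940. Among them, bta-miR-93 and bta-miR-106b belong to the miR-106b-25 cluster, which promotes the cell cycle, and bta-miR-497 and bta-miR-16b to the miR-15 and miR-16 family, which restrains it. A high r was common with the deposited scaling, where the median miRNA had 0.725 and 29 miRNAs exceeded 0.9. With TMM factors the median was -0.08, 0 miRNAs exceeded 0.9, and 5 of the 10 remained, namely bta-miR-744 (r = 0.883), bta-miR-326 (0.866), bta-miR-92b (0.828), bta-miR-155 (0.808) and bta-miR-106b (0.774). In contrast, bta-miR-331-3p went from 0.940 to -0.289. The least like were bta-miR-100 (-0.699), bta-miR-1 (-0.697) and bta-miR-143 (-0.658), the last 2 being smooth muscle list members, and these were also negative with TMM factors (-0.779, -0.630 and -0.624).

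**Figure D5:**
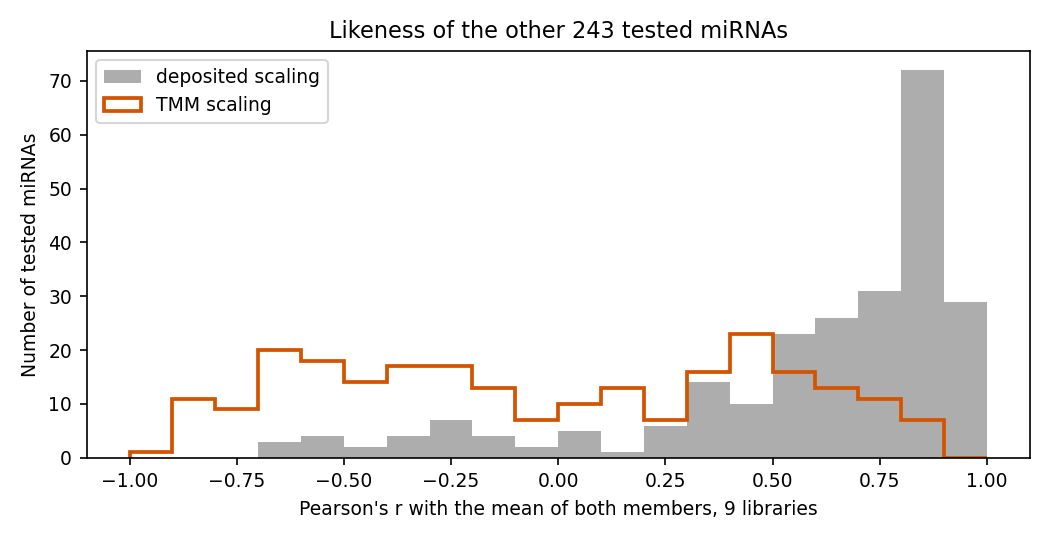
Number of the other 243 tested miRNAs by Pearson's r with the mean log2(CPM + 1) of bta-miR-221 and bta-miR-222 over 9 libraries, as deposited (grey) and with TMM factors (orange line). The median is 0.725 as deposited and -0.08 with TMM factors.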

How the data were processed

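Small RNA libraries were prepared by the authors with a TruSeq kit and read as single reads, and reads were assigned to miRBase sequences with sRNA toolbox (Bowtie and edgeR per the submitters' processing notes, with no version named there). The deposited signal, reads scaled to the library, is called CPM or RPM by the authors and kept under that name. Its columns sum to 1024945 to 1089433, 2.49% to 8.94% above the library total, for which the cause was not tested. All values (100%) were whole reads times 1 step per library (tolerance 1e-06 reads), so reads and totals were recovered.

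Groups and steer numbers came from the sample titles, and 0 sample columns were left out. miRNAs at 5 CPM or more in at least 4 libraries were tested (245, with 270 under the filter), as log2(CPM + 1), which understates differences of low miRNAs, in limma 3.58.1 (R 4.3.3, trended prior, Benjamini-Hochberg adjustment, thresholds of the study). On recovered reads, edgeR 4.0.16 and DESeq2 1.42.0 were alternatives. Correlations were tested over all 362880 pairings of 9 libraries, or 2880 within groups. Intervals are 95% Clopper-Pearson and cover counting error only, as reads carry no molecular identifiers. Replicates are separate steers.

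The members and lists were chosen with earlier results of these data known. The miRNAs named were the members, the 10 most and 3 least like them, and abundant or called members of each list. Sequences were not analysed here. Pseudocounts, filters, scalings, tools and leaving out each library were the alternatives tried.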

Additional observations from a re-analysis of the deposited data

Results flagged for a closer look

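A library far from the others of its group was found once among 44 sets of values. The limit used is one that chance alone passes in about 1 in 20 separate, normally distributed sets. The sets here overlap, so the rates cannot be compared closely, and nothing is read from this 1 library. NS steer 242 held 1387 CPM of bta-miR-155, while its 3 NS companions held 340 to 475 CPM. For bta-miR-221, bta-miR-222, their sum and their ratio, the library farthest from its group stayed within the limit in both groups.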

How the results depend on the processing

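The log2 differences of bta-miR-221 and bta-miR-222 kept their sign under all 18 alternatives each, but their size depended on the scaling and tool. The difference of bta-miR-221 shrank from -1.33 as deposited to -0.50 in DESeq2, and that of bta-miR-222 from -1.79 to -1.01 with TMM factors. These shifts stayed under 1 SD between replicates, a wide limit that says little. The filter on low miRNAs does not enter these differences, so leaving it out could not move them. With 1 library dropped at a time, bta-miR-221 ranged from -1.72 (SS steer 287 dropped) to -0.93 (SS steer 310). For bta-miR-222 the range was -2.10 (SS steer 294) to -1.37 (SS steer 310). Their log2 ratio also kept its sign and stayed under 1 SD in 11 alternatives, at -0.69 to -0.21. The count of called miRNAs rose from 0 to 1 with no filter (bta-miR-2284j), to 1 in edgeR's exact test (bta-miR-1271) and to 9 in DESeq2, and was 0 whichever library was left out. These 2 miRNAs were named after their values were seen. The correlation of the members was 0.871 to 0.968 when each library was left out. Against the leukocyte list the adjusted call was lost for bta-miR-221 with TMM factors (0.713), without bta-miR-143 in the totals (0.805) and with group means subtracted (0.919), and for bta-miR-222 likewise (0.526, 0.669 and 0.854). Leaving out each library gave 0.889 to 0.959 for bta-miR-221 and 0.759 to 0.897 for bta-miR-222 with this list, and 0.473 to 0.874 and 0.542 to 0.807 with the epithelial list. With TMM factors the sign turned against the endothelium list (-0.533 and -0.729) and the erythrocyte list (-0.240 and -0.489), and without bta-miR-143 against the endothelium list (-0.0159 and -0.0828). The cause was not tested. Of the 10 miRNAs most like the members, 5 were shared with TMM factors, 4 with group means subtracted and 2 by Spearman's rho. No paired analysis was made. No steer number occurs in both groups, and the sample titles name no pen by which shedders and their pen-mates could be matched.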
